A study of Mus musculus with 2116 samples.

Results

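A set of 9 transcription factors that mark resting T cells was followed here in regulatory and conventional CD4 T cells of the mouse spleen: Tcf7, Lef1, Satb1, Bach2, Foxp1, Foxo1, Id3, Ets1 and Bcl11b. They are among 23725 genes of the deposited table, were chosen by name for their known place in the naive T cell state by a rule that uses no measured value, with earlier results of these data known, and all 9 had UMIs in both libraries. The table counts UMIs, the molecular tags that mark each captured mRNA molecule once, in 2116 single cells prepared with inDrops, a droplet method. There were 816 cells of Foxp3 positive regulatory T cells (Treg) and 1300 cells of Foxp3 negative conventional T cells (Tconv). Both came from spleens of male B6 Foxp3-Ires-Gfp mice aged 8 months, whose Foxp3 locus also makes a green fluorescent protein, and no treatment is named. The labels name 1 library per group and no animals, so there is no replicate check and no test, and every interval given here covers counting error only.

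T cells that have not met antigen keep a program of transcription factors that hold them quiescent, long lived and able to recirculate through lymphoid organs. Tcf7 (which encodes TCF-1) and Lef1 are sister high mobility group factors, Satb1 organises chromatin, and Bach2 represses effector genes. Foxp1 and Foxo1 are forkhead factors, of which Foxo1 drives receptors for survival and homing. Id3 binds E proteins and keeps them off DNA, Ets1 is an ETS family factor needed for survival of T cells, and Bcl11b fixes T lineage identity. Treg cells are suppressive CD4 T cells defined by Foxp3, and they too exist in resting and effector states.

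Foxp3 stood at 380.1 UMIs per 1000000 (CPM) in Treg and 2.996 CPM (6 UMIs) in Tconv, which matches the labels, although the protocol text gives the same GFP gate for both sorts. Summed over cells there were 1468203 UMIs in Treg and 2002752 in Tconv, with medians of 1688.5 and 1510.5 UMIs per cell. Of the 11 T lineage genes in the table, 11 had UMIs in each library, with a summed level of 5207 CPM in Treg and 5653 CPM in Tconv. Cells with at least 3 UMIs of a marker list of another type were 5.39% of the Treg library (95% exact interval 3.94 to 7.17) and 1.85% of the Tconv library (1.19 to 2.73). The B cell list summed to 684.5 CPM in Treg and 179.3 in Tconv, with Pax5 at 0 in both, and the myeloid list to 551.01 CPM in Treg and 302.1 CPM in Tconv. The sum of the plasma cell list ran the other way, at 17.03 CPM in Treg and 198.7 CPM in Tconv. Most of the Tconv sum came from a single gene, Jchain, which stood at 0 in Treg. Of the other genes, Mzb1 had more UMIs in Treg, and Sdc1 and Derl3 had more in Tconv. Cells with at least 3 UMIs of the plasma cell list were 0.245% of the Treg library and 0.154% of the Tconv library. Between the libraries 12 cell barcodes were shared.

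These 4 promoters are shown because they belong to the member that was higher in Treg and to the 3 members with the lowest ratios. Each window runs from 250 bases before to 50 after a RefSeq gene start (GRCm38.p6), 5′ to 3′ on the gene's strand, and capitals mark the E box CANNTG, the element that E proteins bind and from which Id3 keeps them. The windows lie at chr4:136143572-136143871 on the plus strand for Id3, chr11:52282965-52283264 on the minus strand for Tcf7, chr3:131110073-131110372 on the plus strand for Lef1 and chr17:51833241-51833540 on the minus strand for Satb1.
Id3: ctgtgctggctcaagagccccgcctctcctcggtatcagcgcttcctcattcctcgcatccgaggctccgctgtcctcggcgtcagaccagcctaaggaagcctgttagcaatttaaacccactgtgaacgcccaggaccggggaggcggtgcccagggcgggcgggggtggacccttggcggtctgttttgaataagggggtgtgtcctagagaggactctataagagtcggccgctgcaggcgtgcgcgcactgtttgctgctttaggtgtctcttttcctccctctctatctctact
Tcf7: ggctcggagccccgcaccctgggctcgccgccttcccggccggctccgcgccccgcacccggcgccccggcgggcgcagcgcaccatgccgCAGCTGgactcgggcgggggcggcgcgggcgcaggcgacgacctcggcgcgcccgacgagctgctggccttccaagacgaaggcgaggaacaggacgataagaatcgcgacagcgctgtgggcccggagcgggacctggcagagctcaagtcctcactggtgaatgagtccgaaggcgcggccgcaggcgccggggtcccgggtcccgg
Lef1: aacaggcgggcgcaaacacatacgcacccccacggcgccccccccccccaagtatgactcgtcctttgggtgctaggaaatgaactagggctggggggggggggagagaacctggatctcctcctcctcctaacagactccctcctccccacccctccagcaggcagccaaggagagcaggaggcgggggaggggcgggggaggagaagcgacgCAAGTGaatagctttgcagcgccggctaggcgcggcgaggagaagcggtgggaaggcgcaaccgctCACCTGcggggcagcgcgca
Satb1: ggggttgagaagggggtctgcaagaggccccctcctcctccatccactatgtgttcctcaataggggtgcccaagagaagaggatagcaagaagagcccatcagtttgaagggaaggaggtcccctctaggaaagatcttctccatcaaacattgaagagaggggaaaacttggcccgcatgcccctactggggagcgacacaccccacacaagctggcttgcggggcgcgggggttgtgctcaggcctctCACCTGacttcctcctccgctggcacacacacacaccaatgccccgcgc

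The Id3 window held none of the 4 motifs searched on both strands, which were the E box, CTTTG for TCF and LEF factors, GTAAACA for forkhead factors and CCGGAAG for ETS factors. Tcf7 and Satb1 each had 1 E box, and Lef1 had 2 E boxes and 2 CTTTG matches, none of which overlapped. Of the 8 members with an entry, 5 had an E box, 5 CTTTG, 1 the forkhead motif and 2 the ETS motif, against 72.3%, 53.9%, 3.65% and 8.86% of all 32851 promoters. These matches describe letters in the windows and not binding. RefSeq held 2 entries for Tcf7, and 1 window is shown. Its E box lies in a reading frame that opens with ATG and holds no stop codon up to the window's end. That match may therefore be coding sequence of a longer transcript, which was not tested.

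The members split in 3 ways between Treg and Tconv cells. Id3 was 4.16-fold higher in Treg, Tcf7, Satb1 and Lef1 were lower, and Foxp1, Bcl11b, Bach2, Foxo1 and Ets1 differed by less, with Foxp1 the farthest from its Tconv level at 1.16-fold lower. One member of 9 was at least 2-fold higher in Treg and 0 were at least 2-fold lower, where 8.61% of the 8988 genes tested (at least 20 UMIs over both libraries) were at least 2-fold higher and 3.60% at least 2-fold lower. With intervals read against 0, 5 members lay wholly below it, against 9.16% of all genes tested. That share is not matched for UMIs: intervals narrow as counts rise, and genes tested held as few as 20 UMIs. The median log2 ratio was -0.20 over the members and 0.14 over all genes tested, and 6 members had intervals wholly below that median. These ratios rest on 83 UMIs (Lef1) to 1595 UMIs (Ets1) per member in Treg and up to 2178 (Ets1) in Tconv.

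**Figure D1:**
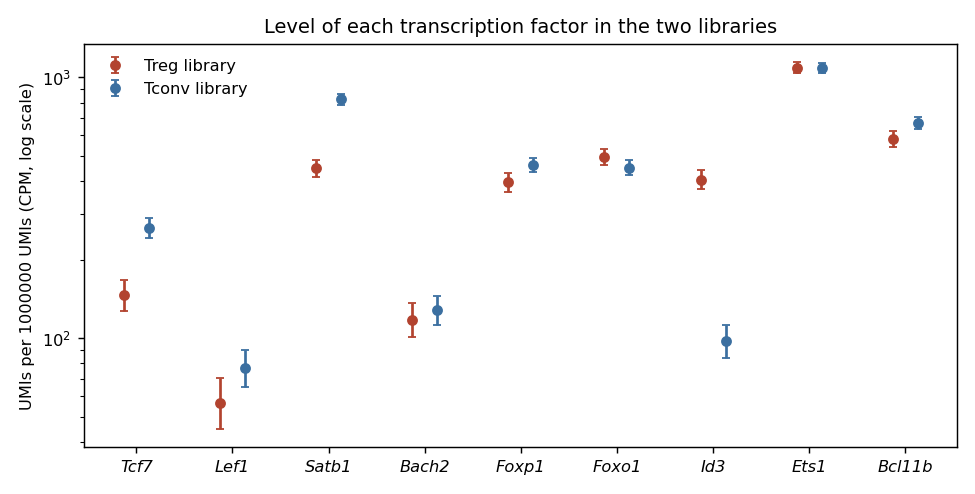
Level of each of the 9 transcription factors in CPM on a log axis, in the Treg library (red, left) and the Tconv library (blue, right), with exact Poisson 95% intervals as bars. Id3 is the member with the widest gap, at 405.3 CPM in Treg and 97.4 CPM in Tconv, while the Ets1 points coincide.

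Tcf7 (GRCm38 chr11:52252371-52283014, minus strand) had 146.4 CPM (127.5 to 167.4) in Treg, against 264.6 CPM (242.6 to 288.2) in Tconv. Its log2 ratio was -0.85 (-1.09 to -0.62), a level 1.81-fold lower in Treg. Satb1 (chr17:51736187-51833290, minus strand) had 447.5 CPM (413.9 to 483.1) in Treg, against 822.4 CPM (783.1 to 863.1) in Tconv. Its log2 ratio was -0.88 (-1.01 to -0.75), or 1.84-fold lower in Treg. For both genes the intervals of the libraries did not overlap. Lef1 (chr3:131110471-131224356, plus strand) was the sparsest member, with 56.5 CPM (45.03 to 70.1) in Treg and 76.9 CPM (65.2 to 90.04) in Tconv. Here the intervals of the libraries overlapped, and the log2 ratio of -0.44 (-0.85 to -0.05) came close to 0 at its upper end.

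Id3 (chr4:136143497-136145755, plus strand) was the member past 2-fold. It had 405.3 CPM (373.3 to 439.2) in Treg, against 97.4 CPM (84.2 to 112.03) in Tconv, a log2 ratio of 2.06 (1.82 to 2.30). That ratio stood at the 98.1 percentile of the genes tested. Without the cells that held markers of other types it was 2.10. Id2, the related inhibitor of E proteins, differed in the opposite direction, at 49.04 CPM in Treg and 130.3 CPM in Tconv, a log2 ratio of -1.41 (-1.81 to -1.03).

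The remaining members were close to equal. Ets1 (chr9:32636221-32757820, plus strand) was the most abundant in UMIs, with 1086.4 CPM in Treg and 1087.5 CPM in Tconv, and its log2 ratio was -0.00 (-0.10 to 0.09). Foxo1 (chr3:52268336-52353221, plus strand) had 494.5 CPM in Treg and 449.9 CPM in Tconv, with a log2 ratio of 0.14 (-0.01 to 0.28), the same as the median gene. Foxp1 (chr6:98925338-99522721, minus strand) had 395.7 CPM in Treg and 460.9 CPM in Tconv, a log2 ratio of -0.22 (-0.37 to -0.07). Bcl11b (chr12:107910403-108003602, minus strand) had 580.3 CPM in Treg and 666.1 CPM in Tconv, a log2 ratio of -0.20 (-0.32 to -0.07). Bach2 (chr4:32238804-32586108, plus strand) had 117.8 CPM in Treg and 127.8 CPM in Tconv, and its interval of -0.40 to 0.17 allows either direction. Trimmed mean (TMM) scaling shifted every ratio by -0.16 on the log2 scale and put the median of all genes tested at -0.02. Foxo1 then stood at -0.02 and Ets1 at -0.16, so their direction depends on the scaling, and Tcf7 and Satb1 passed 2-fold at -1.01 and -1.03.

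**Figure D2:**
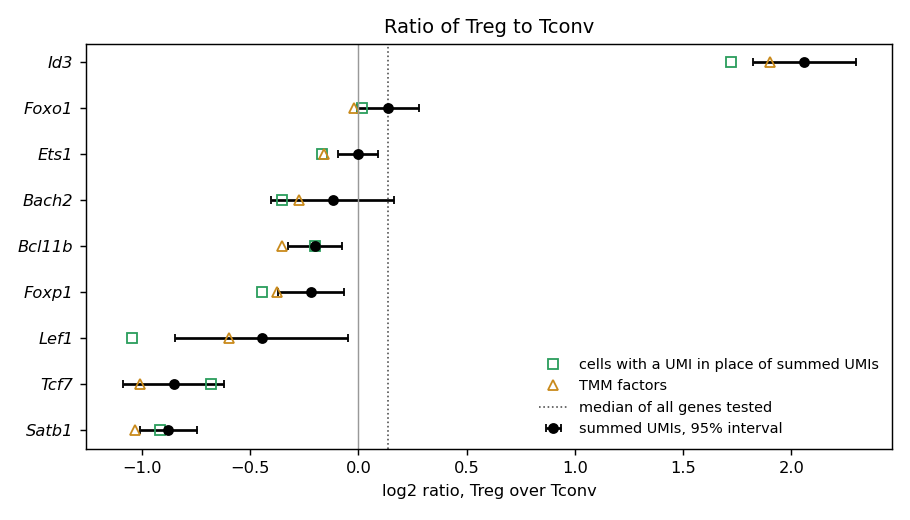
Log2 ratio of Treg over Tconv for each member, from summed UMIs with exact 95% intervals (black), from TMM factors (triangles) and from the share of cells with a UMI after thinning (squares), with the median of all genes tested as a dotted line. Id3 alone lies far to the right, and Satb1, Tcf7 and Lef1 lie lowest, with Lef1, whose shares vary with the thinning draw, at -1.05 by cells and -0.44 by UMIs.

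By the share of cells with a UMI, Id3 again had the highest ratio, and Lef1, Satb1 and Tcf7 the lowest 3. To set cells of unequal depth side by side, each was thinned to 1000 UMIs, which left 738 Treg cells, with 78 shallower ones dropped, and 85.2% of the Tconv cells. Satb1 was then seen in 24.9% of Treg cells (21.8 to 28.2), against 47.02% in Tconv (44.05 to 50.01), and before thinning in 30.5% and 55.8% of all cells. Tcf7 was seen in 13.6% of Treg cells (11.2 to 16.2), against 21.8% in Tconv (19.4 to 24.3). For Lef1 the shares were 2.71% in Treg (1.66 to 4.15) and 5.60% in Tconv (4.32 to 7.12), and with another thinning seed 3.79% and 6.59%. Id3 was seen in 19.6% of Treg cells (16.8 to 22.7), against 5.96% in Tconv (4.64 to 7.52). Before thinning, Foxp3, which Tconv cells should lack, had a UMI in 0.462% of all Tconv cells and in 36.4% of all Treg cells. This gives no background level for the members, which was not measured.

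Foxp1 was seen in 23.8% of Treg cells (20.8 to 27.1), against 32.5% in Tconv (29.7 to 35.3), a wider gap than in its level. Ets1 was seen in 54.1% of Treg cells (50.4 to 57.7), against 60.7% in Tconv (57.8 to 63.6), with nearly equal levels. The intervals of the Ets1 shares only just missed each other, and another thinning seed gave 53.1% in Treg and 59.2% in Tconv. The shares of Foxo1, at 31.98% in Treg and 31.6% in Tconv, of Bach2, at 8.27% and 10.6%, and of Bcl11b, at 33.2% and 38.2%, had overlapping intervals. The mean cell showed 2.12 of the 9 members in Treg and 2.54 in Tconv, with 3.88 and 4.12 member UMIs.

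**Figure D3:**
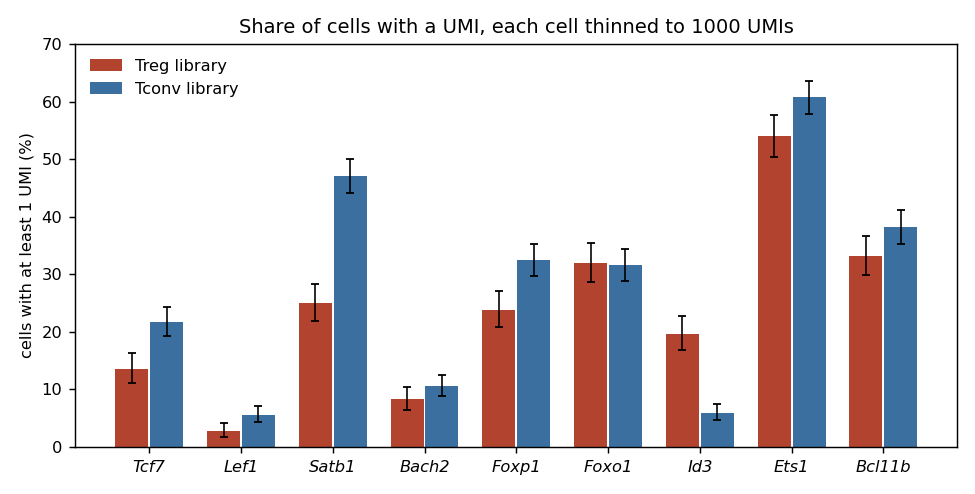
Share of cells with at least 1 UMI of each member after thinning every cell to 1000 UMIs, in Treg (red, left) and Tconv (blue, right), with exact binomial 95% intervals. Satb1 was seen in 24.9% of Treg and 47.02% of Tconv cells, and Id3 in 19.6% and 5.96%.

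The members were less evenly spread over Treg than over Tconv cells. The variance of thinned UMIs over their mean, which is 1 for counting noise alone, was 2.72 in Treg and 1.68 in Tconv for Satb1. It was 2.31 and 1.33 for Lef1, 2.27 and 1.23 for Bach2, 2.34 and 1.59 for Foxp1, and 2.09 and 1.38 for Ets1. The values lay closer for Foxo1, at 1.49 and 1.46, and for Bcl11b, at 2.08 and 1.91. The same held for Tcf7, at 1.26 and 1.06, and for Id3, at 2.49 and 2.24. All 9 members had the larger value in Treg, but genes of similar mean level also had the larger median there, at 1.72 in Treg and 1.37 in Tconv. For Id3, 48.3% of positive Treg cells had at least 2 UMIs, against 33.3% of positive Tconv cells, and 1 Treg cell had 18 before thinning. Because UMIs were clumped in cells, the intervals on summed UMIs are too narrow.

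Cells were next grouped by how many UMIs of 28 effector transcripts they held of 1000, a list of adhesion, migration and cytoskeletal genes such as S100a4, Itgae and Crip1 that activated T cells express. Of Treg cells 27.5% had 0 or 1, 42.8% had 2 to 4 and 29.7% had 5 or more, and of Tconv cells 41.7%, 41.7% and 16.6%. A class is a range of a count and not a cell type: 49 Treg cells and 73 Tconv cells sat at exactly 5 UMIs, and 82 and 91 at 4. Levels in the classes are CPM with the effector list left out of the total.

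In Treg cells Lef1, Satb1 and Bach2 were lower in the effector-high class. Lef1 had 11 UMIs or 25.4 CPM (12.7 to 45.5) in the high class and 29 UMIs or 76.6 CPM (51.3 to 110.01) in the low class, a log2 ratio of -1.59 (-2.74 to -0.55). Satb1 stepped down class by class, with 562.6 CPM (489.6 to 643.5) in the low, 457.9 CPM in the middle and 335.5 CPM (283.1 to 394.7) in the high class, a log2 ratio of high over low of -0.75 (-1.06 to -0.43). Bach2 had 87.9 CPM (62.2 to 120.7) in the high class and 158.5 CPM (120.9 to 204.003) in the low class, a log2 ratio of -0.85 (-1.48 to -0.24). The other 6 had intervals across 0, from Tcf7 at -0.17 (-0.71 to 0.37) to Id3 at 0.28 (-0.06 to 0.63). Tcf7, the sister of Lef1, stood at 141.1 CPM in the high class and 158.5 CPM in the low class.

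One of the 9 members, Lef1, was at least 2-fold lower in the effector-high Treg cells, where 5.78% of the 5480 genes tested were. None was at least 2-fold higher, against 9.89%, and 3 had an interval wholly below 0, against 9.64%, a share again not matched for UMIs. The median log2 ratio was -0.13 over the members and 0.08 over the genes tested. Since thinning draws UMIs at random, the classes were redrawn 20 times: Lef1 ranged from -3.98 to -1.15, Satb1 from -0.82 to -0.33 and Bach2 from -2.25 to -0.74, each below 0 in all 20. Tcf7 was also below 0 in all 20, from -0.56 to -0.09. Medians of the redraws were -1.86 for Lef1, -0.58 for Satb1 and -1.16 for Bach2. Classes made from all UMIs of a cell gave -1.45, -0.36 and -1.48, so for Satb1 the reported -0.75 was larger in size than both. Bach2 nevertheless stood at 0.39 when classes of 4 or more and 0 UMIs were compared.

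In Tconv cells Tcf7, Foxp1, Satb1 and Ets1 were lower and Id3 was higher in the effector-high class. Tcf7 had 203.2 CPM (156.5 to 259.4) in the high class and 275.5 CPM (239.7 to 315.2) in the low class, a log2 ratio of -0.44 (-0.87 to -0.03). Foxp1 had 380.9 CPM in the high and 502.9 CPM in the low class, a log2 ratio of -0.40 (-0.71 to -0.10). Satb1 had 692.05 CPM in the high and 845.97 CPM in the low class, at -0.29 (-0.52 to -0.07), and Ets1 961.9 and 1144.9 CPM, at -0.25 (-0.44 to -0.06). Id3 stood at 146.03 CPM and 46 UMIs, against 83.2 CPM and 64 UMIs in the low class, a log2 ratio of 0.81 (0.23 to 1.38), though the 20 redraws gave -0.09 to 0.68, all below this value. Bach2 stood at 0.47 (-0.04 to 0.97), at the upper end of its 20 redraws, which ran from -0.05 to 0.47 with a median of 0.19, and another thinning seed gave -0.01.

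No member was at least 2-fold lower or higher between the Tconv classes, against 5.43% and 6.32% of the 6025 genes tested. The intervals of 4 lay wholly below 0, against 5.43%, here too without matching for UMIs. The median was -0.25 over the members and 0.08 over the genes tested. Lef1 had 18 UMIs in the high and 62 in the low class, with a log2 ratio of -0.50 (-1.34 to 0.28). Classes made from all UMIs of a cell gave -1.61 for it, so its size in Tconv is poorly fixed. Cells with markers of another type made up 4.11% of the effector-high and 3.45% of the effector-low Treg cells, and 3.804% and 1.08% in Tconv. Left out, they moved no member's ratio between effector classes by more than 0.112.

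**Figure D4:**
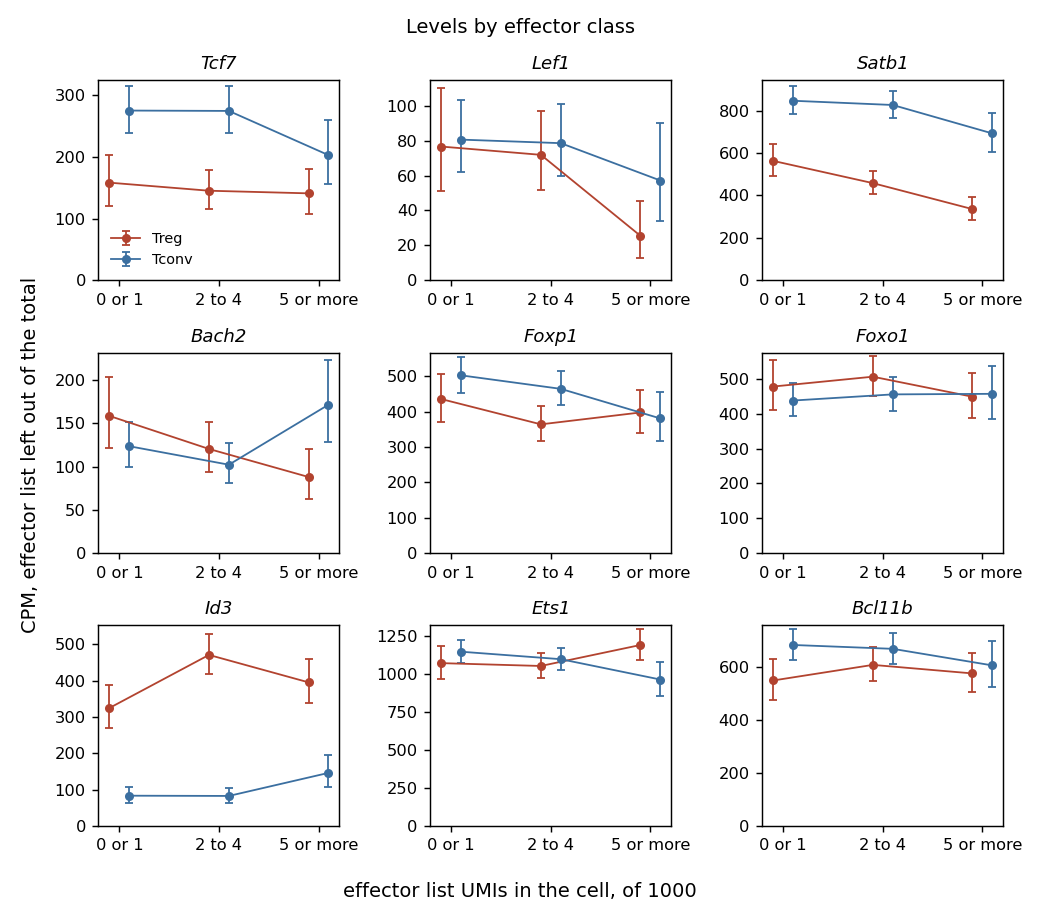
Level of each member in CPM against the number of effector list UMIs per 1000 UMIs of a cell, in Treg (red) and Tconv (blue), with exact Poisson 95% intervals and axes from 0. Satb1 steps down in Treg from the low to the high class, and Id3 is higher in Treg than in Tconv in every class.

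Within each effector class Id3 was higher and Satb1 lower in Treg. The high class has no upper limit and is not matched: it held a median of 7 list UMIs in Treg and 6 in Tconv, with effector transcripts at 10668 and 6647 CPM. From the low to the high class, the log2 ratio of Treg over Tconv was 1.97 (1.52 to 2.43), 2.51 (2.12 to 2.93) and 1.44 (0.96 to 1.94) for Id3. For Satb1 it was -0.59 (-0.82 to -0.36), -0.85 (-1.06 to -0.64) and -1.04 (-1.36 to -0.74). Tcf7 had -0.80, -0.92 and -0.53, the last with an interval of -1.06 to 0.00. Lef1 was near equal in the low class at -0.07 (-0.76 to 0.59) and lower in the high class at -1.17 (-2.40 to -0.01). Bach2 likewise had 0.36 (-0.13 to 0.84) in the low and -0.96 (-1.60 to -0.34) in the high class.

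A list of 15 transcripts that T cell receptor (TCR) signals induce, among them Nr4a1, Egr1, Cd69 and Dusp2, divided the cells in another way. Of Treg cells 18.4% had 3 or more of these UMIs per 1000 and 72.6% had 0 or 1, and of Tconv cells 8.94% and 83.9%. Id3 was higher in the TCR-high than in the TCR-low cells of both libraries, though not class by class in Treg. In Treg it had 665.4 CPM (571.7 to 769.97) in the high class and 365.8 CPM (329.3 to 405.1) in the low class, a log2 ratio of 0.86 (0.60 to 1.12). In Tconv it had 29 UMIs or 165.5 CPM (110.8 to 237.7) in the high class and 82.7 CPM (68.9 to 98.4) in the low class, a log2 ratio of 1.001 (0.37 to 1.59). Over 20 redraws the median was 0.63 in Treg (0.50 to 0.86) and 1.02 in Tconv (0.76 to 1.25). With cells of other-type markers removed, the ratios were 0.89 in Treg and 1.08 in Tconv. In the middle class, with 2 of these UMIs, Id3 stood at 204.2 CPM (135.7 to 295.1) in Treg, below the low class. In Tconv the middle class had 120.9 CPM (70.4 to 193.6).

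As shares and UMIs per positive cell, the Id3 values were as follows. In Treg the share of thinned cells with an Id3 UMI was 22.8% (16.04 to 30.8) in the high class and 19.8% (16.5 to 23.4) in the low class, with 3.67 and 2.57 UMIs per positive cell before thinning. In Tconv the shares were 14.1% (7.95 to 22.6) and 4.73% (3.46 to 6.30), with 1.53 and 1.95 UMIs per positive cell. Whether the libraries differ in this was not tested.

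The other members were not higher in TCR-high Treg cells. Tcf7 stood at -0.61 (-1.25 to -0.02), Satb1 at -0.40 (-0.73 to -0.09) and Ets1 at -0.24 (-0.44 to -0.04), and the remaining 5 between -0.91 and -0.19 with intervals across 0. Single cells decide several of these: without the cell with most UMIs of the gene in each class, Lef1 stood at -2.09 (-4.01 to -0.67), Bach2 at -0.88 (-1.70 to -0.14) and Foxp1 at -0.43 (-0.80 to -0.08). One cell held 6 of the 10 Lef1 UMIs in the TCR-high Treg class, and Foxp1 was -0.66 after removal of cells with other-type markers. In Tconv the other 8 had intervals across 0, from Tcf7 at -0.27 to Bach2 at 0.45. For the TCR classes, the share of all genes tested with an interval wholly below 0 was not counted. With all cells, no member was at least 2-fold lower, against 10.5% of 6792 genes tested in Treg and 15.1% of 7228 in Tconv. None in Treg and 1 in Tconv (Id3) was at least 2-fold higher, against 7.48% and 6.71%, and that Tconv value lies at the threshold. Without Myc and Junb in the list, Id3 passed it in Treg too, at 1.17.

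**Figure D5:**
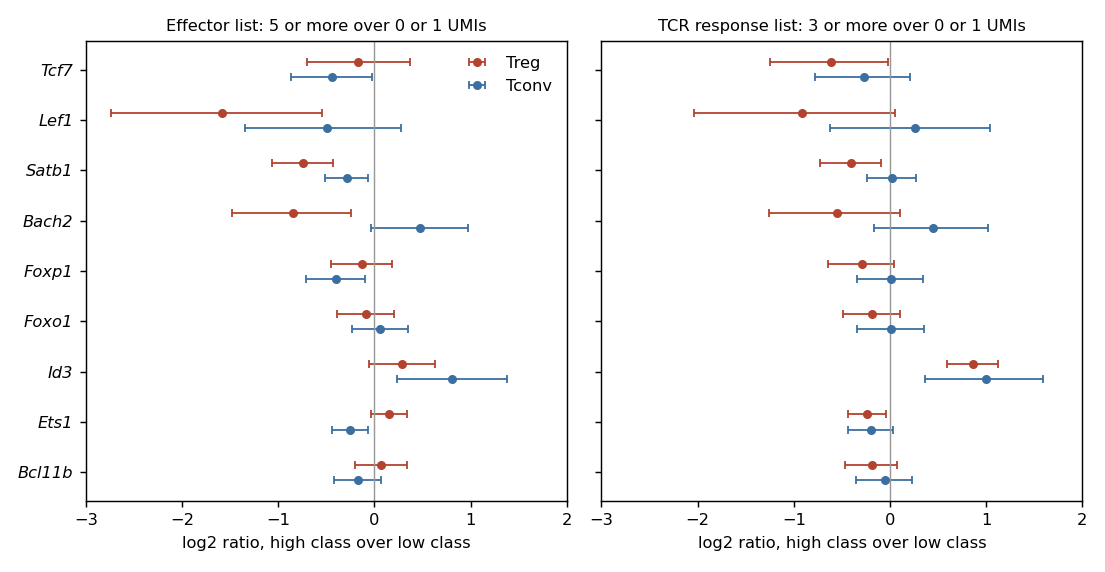
Log2 ratio of the high over the low class for each member, by effector list UMIs (left) and TCR response list UMIs (right), in Treg (red, upper) and Tconv (blue, lower), with exact 95% intervals. Id3 is to the right of 0 in both libraries in the right panel, at 0.86 in Treg and 1.001 in Tconv.

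Treg cells without a UMI of the 15 Treg signature genes had higher levels of Lef1, Tcf7, Satb1 and Foxp1. There were 98 such cells, shallower at a median of 1343.5 UMIs, against a median of 1743 in the cells with at least 1 signature UMI. Lef1 had 169.7 CPM (107.6 to 254.7) in the cells without and 45.02 CPM (34.4 to 57.95) in the cells with signature UMIs. Tcf7 had 250.9 CPM (173.7 to 350.6) without and 135.8 CPM (116.8 to 157.1) with them, and Satb1 686.3 CPM (553.9 to 840.7) without and 423.2 CPM (388.995 to 459.6) with them. Foxp1 had 553.4 CPM (435.3 to 693.7) without and 379.7 CPM (347.3 to 414.3) with them. Id3 was the reverse, at 265.6 CPM (186.1 to 367.8) without and 419.5 CPM (385.4 to 455.7) with signature UMIs. How many of all genes differ between these 2 sets of cells was not counted. Against Tconv, the 98 cells had log2 ratios of 1.14 (0.44 to 1.78) for Lef1 and 0.46 (0.12 to 0.79) for Foxo1. Id3 stood at 1.45 (0.89 to 1.97) there, and the rest of the members had intervals across 0. With the 98 cells left out, the log2 ratio to Tconv was -0.96 for Tcf7, -0.77 for Lef1, -0.96 for Satb1 and 2.11 for Id3.

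Within a cell the members were seen together about as often as their separate shares predict. Over the 36 pairs, cells with both were a median of 1.01 times the product of the shares in Treg and 1.05 times in Tconv, and Pearson r of log2(thinned UMIs + 1) lay between -0.05 and 0.11 over the thinned Treg cells and between -0.07 and 0.08 over the thinned Tconv cells. These are correlations in sparse counts and no finding. The same holds for the genes most like the summed members of 2089 compared, led by Btg1, an antiproliferative gene, at 0.07 in Treg and 0.10 in Tconv, then Ilk, AA388235, Fam65b, Mknk2 and Tmpo. At the other end stood Gm12070, Rpl6, Gapdh, Srgn, Igtp and Prr13, none below -0.12 in either library.

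Other lists of genes were compared between the libraries in the same way as the members. Of 15 surface and marker genes of resting T cells, 0 were at least 2-fold higher and 5 at least 2-fold lower in Treg, with a median log2 ratio of -0.26. The 4 named by the size of their interval were Dapl1 at -3.20 (-3.73 to -2.70), Igfbp4 at -3.10 (-3.37 to -2.84), Il7r, the interleukin 7 receptor, at -1.74 (-2.04 to -1.45) and Actn1 at -1.18 (-1.36 to -0.999). Of 19 quiescence genes tested, 1 was at least 2-fold higher and 1 lower, with a median of 0.10. Pik3ip1, an inhibitor of PI3 kinase, stood at -1.01 (-1.38 to -0.64), Cblb, a ubiquitin ligase that restrains TCR signals, at 0.90 (0.54 to 1.26), Tob2 at 0.76 and Txnip at 0.53.

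Relatives and partners of the members had 26 genes tested, a median of 0.03, and 1 at least 2-fold higher and 1 lower. Besides Id2 these were led by Gfi1, a repressor, at 1.48 (0.71 to 2.29), Tle4, a corepressor that TCF factors recruit, at -0.92 (-1.43 to -0.42), and Ikzf1, which encodes Ikaros, at -0.62 (-0.82 to -0.43). Of 11 effector transcription factors tested, 7 were at least 2-fold higher and 1 (Id2) lower, with a median of 1.10. Hopx stood at 2.05 (1.51 to 2.61), Irf4 at 2.26 (1.21 to 3.43), Ikzf3 at 1.80 (1.06 to 2.58) and Tox at 1.67 (1.34 to 2.004).

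The lists behind the classes were themselves higher in Treg. Of 26 effector transcripts tested, 10 were at least 2-fold higher and 1 lower, with a median of 0.89. Capg stood at 3.59, S100a4 at 2.93, and Itgae, an integrin chain, was 29.3-fold higher (7.64 to 249.9), from 43 UMIs in Treg and 2 in Tconv. No UMI of the chemokine receptor gene Cxcr6 was counted in Treg, against 61 in Tconv. Of 12 TCR response transcripts tested, 6 were at least 2-fold higher and 0 lower, with a median of 1.02, led by Cd83 at 4.17, Tnfrsf9 at 3.72, Irf8 at 1.79 and Dusp2 at 1.13. All 15 Treg signature genes were at least 2-fold higher, with a median of 4.08, led by Foxp3 at 6.99, Il2ra at 6.01, Ctla4 at 5.47 and Lrrc32, at 88.5 CPM in Treg and 0 UMIs in Tconv. T lineage genes had 0 of 11 past 2-fold and a median of -0.19, with Cd2 at 0.91, Cd4 at -0.49 and Thy1 at -0.37.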

How the data were processed

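UMI counts per gene and cell were used as the authors deposited them, raw whole numbers in 1 table of 23725 genes and 2116 cells. Per the labels' protocols, sorted cells went through inDrops, with oligo dT priming, in vitro transcription and NextSeq500 sequencing. Per the submitters' processing notes, TopHat2, SAMtools and mm10 were used; any annotation, strand setting or cell filter is not given in the sources used here. Of the members' overlapping genes, only Bach2os is in the table, with 0 UMIs in both libraries.

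Cells were grouped by title, with TR and TC read as Treg and Tconv from the series title. UMIs were summed per library as CPM with exact Poisson intervals, and the log2 ratio has an exact conditional binomial interval, all at 95%. Shares have Clopper-Pearson intervals after thinning to 1000 UMIs without replacement. Genes with at least 20 UMIs over the groups compared were tested against a 2-fold threshold, with no p-value. The ratio was tested on simulated data. No doublet caller was run; 47 cells above 2 times their library's median UMIs were left out as an alternative. Gene positions are from the GENCODE annotation of GRCm38, and promoters from RefSeq, which held 8 of 9 members (not Ets1). All 9 members are named, and from every other list of 16 at most 4 genes whose interval bound nearest 0 lay farthest from it; a gene that this rule names is not reported here. The members and lists were chosen with earlier results of these data known; 7 of the 224 list entries are not in the table. Python 3.11.15, numpy 2.4.6, scipy 1.17.1, pandas 2.3.3, R 4.3.3 and edgeR 4.0.16 (TMM factors) were used. Alternatives changed scaling, depth, cells kept, class limits and lists.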

Additional observations from a re-analysis of the deposited data

Results flagged for a closer look

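Bach2 and Ets1 are given here because their effector-high over effector-low ratios had opposite signs in the 2 libraries, with intervals that did not overlap. Bach2 stood at -0.85 in Treg and 0.47 in Tconv on the log2 scale, and Ets1 at 0.15 in Treg and -0.25 in Tconv. The Bach2 interval in Tconv ran from -0.04 to 0.97 and the Ets1 interval in Treg from -0.04 to 0.34, so both crossed 0. How many of all genes tested meet the same rule was not counted. With 1 library per group the difference was not tested. Over 20 redraws of the classes Ets1 was above 0 in all 20 in Treg and below 0 in all 20 in Tconv. Bach2 was below 0 in all 20 in Treg and in 2 of 20 in Tconv, where the median of the redraws was 0.19, another thinning seed gave -0.01 and thinned member UMIs 0.05. In Treg it stood at 0.39 with classes of 4 or more and 0 effector UMIs.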

How the results depend on the processing

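Of the single values recomputed, 70 moved by more than their counting interval, and none that passed 2-fold in the values as reported changed sign. Of 89 summaries, 73 held and 16 moved. The members' median log2 ratio of Treg over Tconv was -0.33 with ribosomal protein genes out of the total, -0.35 with TMM factors and -0.35 with cells in place of UMIs, against -0.20. Under these settings 1, 2 and 1 members were at least 2-fold lower in Treg, against 0, and with thinned UMIs 3 members, against 5, had an interval wholly below 0. In Treg, members at least 2-fold lower in the effector-high class numbered 3 with a class of 8 or more UMIs and 2 without S100 genes, with thinned member UMIs, with another thinning seed, or with classes from all UMIs, against 1. In Tconv they numbered 2 with a class of 8 or more, where the median was -0.58, and 1 with thinned member UMIs or classes from all UMIs, against 0. The cause was not tested. The counts in cells, the classes from all UMIs, the redraws and the class values without the top cell were chosen after seeing the data. No paired analysis was possible because the numbers in the titles only name cells. Depth limits Lef1 most: its effector-high Treg class rests on 11 UMIs in 6 cells and its TCR-high Treg class on 10 UMIs in 5 cells. Leaving out the cell with most Lef1 UMIs in each of the TCR-high and TCR-low Treg classes moved its ratio from -0.91 to -2.09.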
